A study of Mus musculus with 14 samples.

Results

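The genes described here are the matrix proteases, their inhibitors and the lysyl oxidases measured in a mouse reprogramming study. They were chosen by name: every gene whose platform symbol begins with Mmp, Timp or Adam and a number or with Adamts, together with Lox and its numbered Lox-like relatives. The rule gave 74 of the 18194 genes on the array, and the probe set brightest on average across the 14 arrays stood for each. They were 28 Adam, 15 Adamts, 5 Adamtsl, 18 Mmp, 4 Timp and 4 Lox family genes. Loxl2 is not among them, because both of its probe sets also name a second gene. Of the 74, 44 passed the filter on dim signals and were tested: 11 Adam, 10 Adamts, 5 Adamtsl, 11 Mmp, 3 Timp and 4 Lox family genes. The other 30 had fewer than 2 arrays at or above 5.42, the median log2 value of the whole table.

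The study asked how partially reprogrammed mouse cells become genuine induced pluripotent stem cells (iPSCs), with the Ccr4-Not complex as a candidate regulator. Partial iPSC clones 2B1 and 5C5, female cells of C57BL/6 strain grown with LIF and serum, gave 1 array each, and so did the iPSCs made from each clone by exposure to the 2i condition. ESCs came from the blastocyst of a Nanog-GFP transgenic C57BL/6 mouse and from the wild-type 129sv line EBRTcH3, both male, with 1 array each. Embryonic fibroblasts (MEFs) of mixed sex, grown without LIF, came from Nanog-GFP C57BL/6 embryos and gave 1 array. Their stage is 12.5 dpc in the sample title and 13.5 dpc in the series text. A further 7 arrays held 2B1 cells under LIF and serum that carried retroviral empty vector, Cnot1, Cnot2, Cnot3, Trim28, Cnot1, 2 and 3 together, or Nanog. Each of these 7 conditions had 1 array. The replicates of a group were thus 2 clones or 2 lines, and p-values measure the spread between them. Sex differed between the ESC lines and the partial clones and cannot be told apart from cell type there. Strain also differed for EBRTcH3.

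Matrix metalloproteinases (Mmp) are zinc proteases that cut collagens and other matrix proteins, outside the cell or at its surface, and tissue inhibitors of metalloproteinases (Timp) bind and block them. Adam proteins are mostly membrane-anchored and shed the outer parts of surface proteins, Adamts enzymes are secreted and cut proteoglycans and procollagens, and Adamtsl proteins resemble Adamts enzymes but have no protease domain. Lysyl oxidases crosslink collagen and elastin fibres. Many of these genes are known as products of fibroblasts and other matrix-forming cells, and a fall of mesenchymal gene expression is a known early feature of reprogramming from fibroblasts.

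The arrays matched their labels by defining markers in most respects. The mean log2 level of 8 pluripotency genes was 12.08 to 12.51 in the 2i iPSCs and ESCs, 6.75 in both untreated partial clones and 4.63 in MEFs. The mean in the partial clones mixes high and low genes. In 2B1 and 5C5, Pou5f1 read 13.25 and 13.16 and Tdgf1 11.73 and 13.34. Zfp42 read 2.57 and 2.38, Nanog 3.85 and 4.36, and Sox2 4.67 and 3.85. Of 15 fibroblast markers, 14 were measured, and their mean log2 level was 11.91 in MEFs, 8.67 and 8.75 in the 2i iPSCs, 7.87 and 7.50 in the untreated partial clones, and 4.86 and 4.63 in the ESC lines. All 14 reached the table median in MEFs, 13 in each 2i array, 12 in each untreated partial array and 4 in each ESC array. The part of fibroblast-like cells in the results below was not tested. The RNA was from whole cultures, so fewer cells of a type and less RNA per cell cannot be told apart. The transduced arrays appear to have been normalized apart from the other 7, so the tests below use only the first 7 arrays. The library labelled 2B1 with empty vector stood closer to untreated 5C5 than to untreated 2B1, as described before its results.

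**Figure D1:**
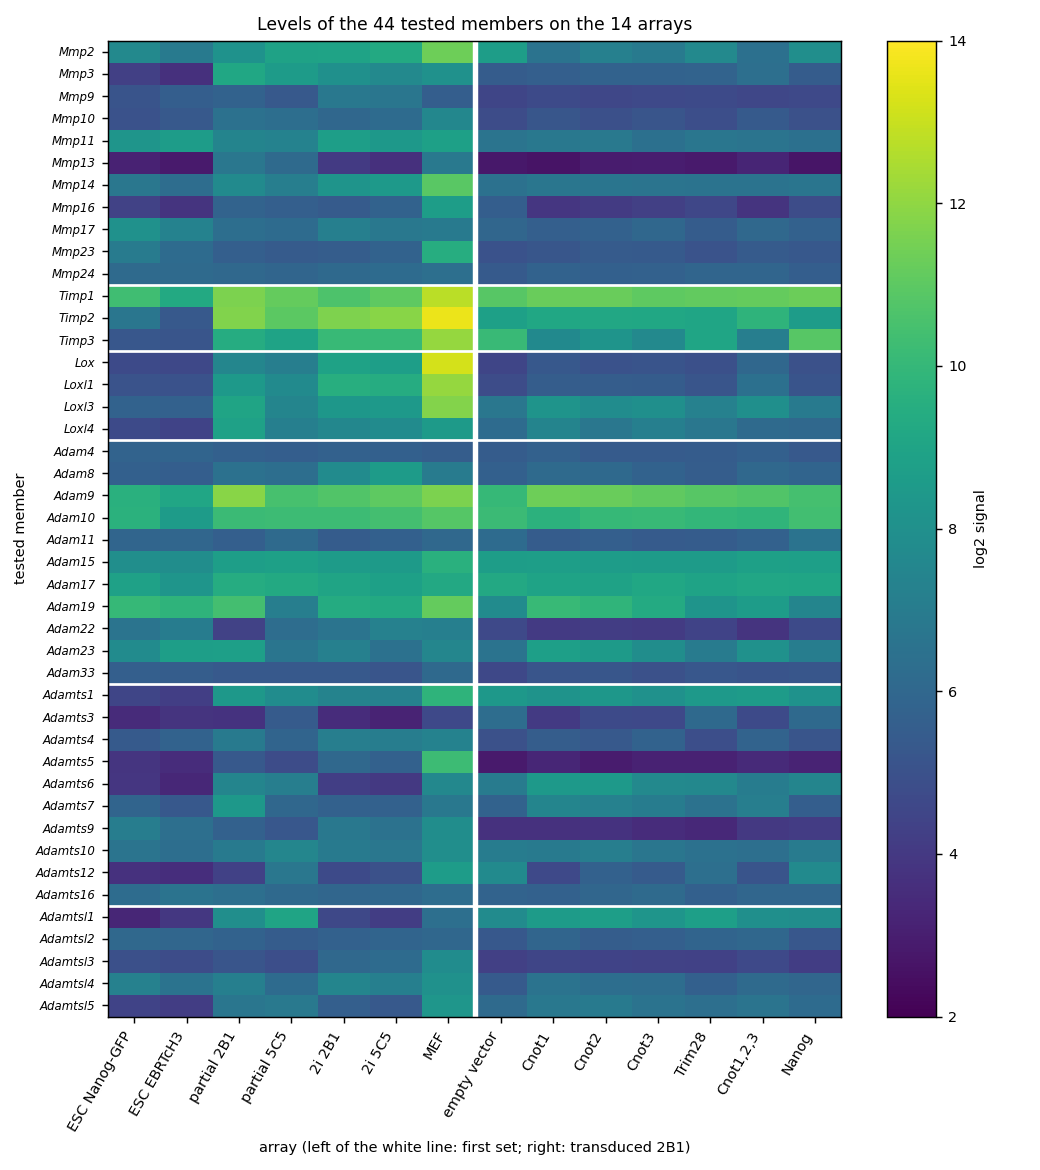
Log2 signal of the 44 tested genes (rows, by family) on the 14 arrays (columns). The white vertical line separates the first 7 arrays from the transduced 2B1 arrays; Lox, Loxl1, Timp2 and Timp3 are brightest in MEFs and dimmest in the ESC lines among the first 7, and colours are to be compared along a row, since probe sets differ in brightness.

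Conversion of the partial clones to 2i iPSCs changed a small part of this group of genes, in both directions. In 2i iPSCs against untreated partial iPSCs, 4 of the 44 tested genes rose and 4 fell at an adjusted p below 0.05, the threshold used for every call here. Of all 12664 genes tested, 6.00% were called, 3.55% higher and 2.46% lower. Adam8, Lox, Mmp11 and Adamtsl3 rose, and Adamtsl1, Adamts6, Mmp13 and Adamtsl5 fell. The median log2 change over the 44 genes was 0.08, against 0.03 over all tested genes. Of 7 markers of primitive and visceral endoderm, 6 reached the table median on each 2i array, against 2 in untreated 2B1 and 1 in untreated 5C5, with mean log2 levels of 6.77 and 6.19 against 5.96 and 4.95. Their part in these changes was not tested. With clone as a replicate block, only the falls of Adamts6 (adjusted p = 0.0276), Mmp13 (adjusted p = 0.0276) and Adamtsl1 (adjusted p = 0.0413) passed, and 0 of the 44 rose. At an unadjusted p below 0.05 in limma, genes passed in both directions with and without that block. The share of all tested genes at that threshold was not computed. Without either 2i array the calls among the 44 were lost, as were most calls over all tested genes. Without untreated 5C5 only falls were called among the 44. Each such fit leaves 1 array in a group. The median log2 change over the 44 genes was then 0.12 without 2i 2B1, 0.02 without 2i 5C5 and -0.01 without untreated 5C5.

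ESCs differed from untreated partial iPSCs in more of these genes, and nearly all of those were lower in ESCs. Of the 44 tested, 16 fell and 2 rose, Mmp11 and Mmp17. Of all tested genes 15.9% were called, 6.09% higher and 9.82% lower. The largest falls were those of the inhibitors Timp2 and Timp3, the stromelysin Mmp3 and the Adamts-like gene Adamtsl1. The median log2 difference of the 44 was -0.94, against 0.00 for all tested genes. Centring each array on its own median moved the median of all tested genes to 0.17 and the split of all calls from 771 higher and 1244 lower to 1062 higher and 1015 lower. Of the 44, that scaling called 3 higher and 15 lower. With the 4 compared arrays alone, which is also what leaving out either 2i array gave, 10 of the 44 fell and 0 rose in limma. Of all 12664 tested genes, 491 fell and 289 rose with those 4 arrays.

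The 2i iPSCs had higher levels than ESCs for 10 of the 44 genes, and 0 were lower in limma at the adjusted threshold. Those 10 were Timp2, Timp3, Loxl1, Lox, Mmp3, Adamts1, Adam8, Adamts5, Mmp14 and Adamtsl3. Of all tested genes 3.85% were called in this comparison, 3.69% higher and 0.158% lower. The median log2 difference of the 44 was 0.88, against 0.00 for all tested genes. Centring each array on its median moved the latter to -0.14 and called 8 of the 44 higher and 0 lower. At an unadjusted p below 0.05 in limma, genes of the 44 passed in both directions, most of them higher. The share of all tested genes at that threshold was not computed, so their number is not given. Leaving out either 2i array gave 0 calls in limma (18 and 17 genes at an unadjusted p below 0.05), and leaving out EBRTcH3 gave 6. The comparisons share arrays, so their lists of genes are not independent of each other.

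MEFs had the highest level of most of these genes. The MEF array was at least 2-fold above both untreated partial arrays for 18 of the 44 genes and at least 2-fold below both for 1, Adamtsl1. Of all tested genes 21.2% passed this fold rule, 9.90% higher and 11.3% lower. Against both ESC lines 28 of the 44 were at least 2-fold higher in MEFs and 0 were lower, where 30.6% of all tested genes passed, 15.4% higher and 15.2% lower. A single array has no spread of its own. When it was assumed to vary like the replicated groups in limma, 15 of the 44 were higher than in partial iPSCs and 0 lower (13.0% of all tested genes called, 6.06% higher and 6.95% lower). On the same assumption 27 of the 44 were called against ESCs, each of them higher in MEFs (28.3% of all tested genes called). At an unadjusted p below 0.05, 1 gene was lower than in partial iPSCs and 0 were lower than in ESCs. The share of all tested genes at that threshold was not computed. Without either 2i array, fewer genes were called in limma in both comparisons, among the 44 and over all tested genes. The median log2 differences of the 44 stayed at 0.91 against partial iPSCs and 2.00 against ESCs.

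**Figure D2:**
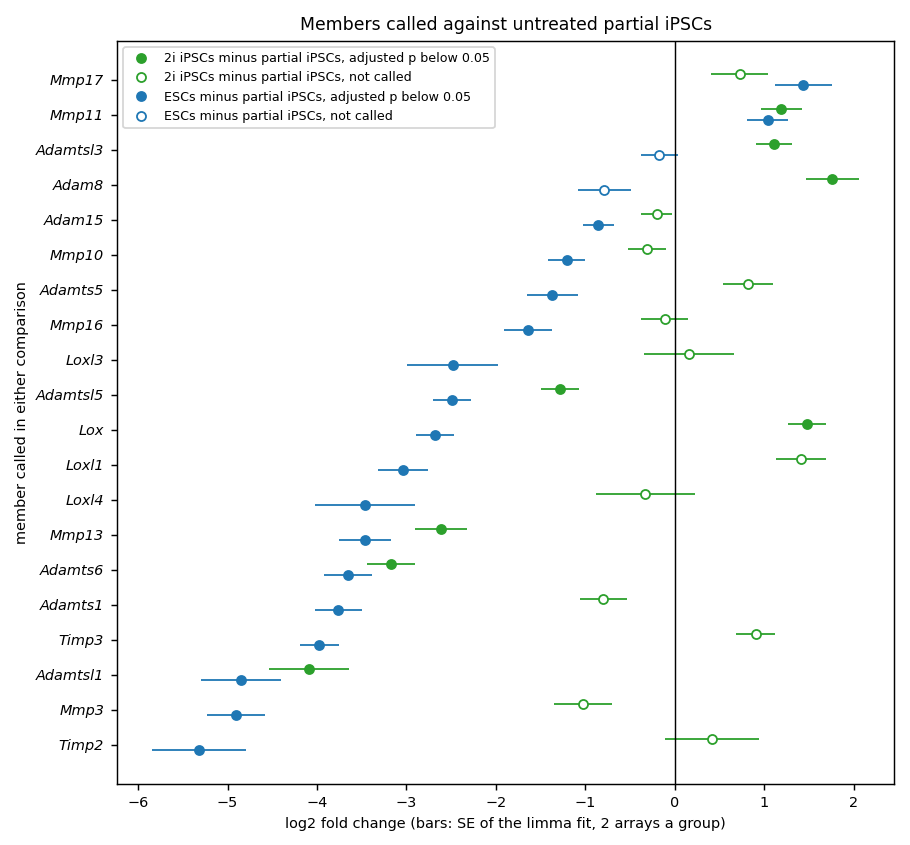
Log2 fold change against untreated partial iPSCs (x axis) of every gene called in either comparison (y axis), in 2i iPSCs (green) and ESCs (blue); filled points have an adjusted p below 0.05, bars are the standard error of the limma fit with 2 arrays a group. Lox rose by 1.48 in 2i iPSCs and fell by 2.68 in ESCs, while Adamtsl1, Adamts6 and Mmp13 fell in both.

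Among the inhibitors, Timp3, which binds to the matrix and also blocks several Adam and Adamts enzymes, read 9.41 in untreated 2B1 and 8.96 in untreated 5C5 on the log2 scale. It read 10.11 and 10.08 in the 2i iPSCs of these clones, 12.08 in MEFs, and 5.24 and 5.19 in the Nanog-GFP and EBRTcH3 ESCs. The groups did not overlap, and both ESC lines lay below the table median. The fall in ESCs against partial iPSCs was 15.7-fold, a log2 change of -3.97 ± 0.22 (SE, adjusted p = 0.00133). The 2i iPSCs were 29.4-fold above ESCs, with a log2 difference of 4.88 ± 0.22 (SE, adjusted p = 0.00199). The 2i iPSCs also read above both partial clones, but that difference of 0.91 ± 0.22 (SE) did not pass (adjusted p = 0.0814).

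Timp2, which blocks Mmps and also takes part in the activation of Mmp2 at the cell surface, showed the largest fold change of the 44 in ESCs against partial iPSCs. It read 11.73 and 10.96 in untreated 2B1 and 5C5, 11.67 and 11.86 in their 2i iPSCs, 13.65 in MEFs, and 6.73 and 5.33 in the Nanog-GFP and EBRTcH3 ESCs. The partial and 2i arrays overlapped, and both ESC lines were far below them. The level in ESCs was 39.9-fold below partial iPSCs (log2 change -5.32 ± 0.53, SE, adjusted p = 0.00462), and the 2i iPSCs were 53.2-fold above ESCs (adjusted p = 0.00797). Timp2 has 6 probe sets, and the 4 others that reached the table median gave falls of 1.69 to 6.07 in ESCs against partial iPSCs on the log2 scale. The ESC lines themselves differed by 1.40 on the log2 scale in Timp2.

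Timp1, a widely expressed and growth-responsive inhibitor, stayed bright on every array. It read 11.63 and 11.17 in untreated 2B1 and 5C5, 10.65 and 11.02 in their 2i iPSCs, 12.74 in MEFs, and 10.33 and 9.31 in the ESC lines. Its log2 difference of -1.58 ± 0.40 (SE) between ESCs and partial iPSCs did not pass (adjusted p = 0.0574). The log2 change was -2.09 without the Nanog-GFP ESCs, which leaves EBRTcH3 alone. Timp1 lies on chromosome X, and the partial clones were female and the ESC lines male. Sex and cell type cannot be told apart here. Timp4 was dim, with no array above 4.79.

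Among the lysyl oxidases, Lox read 7.51 and 7.15 in untreated 2B1 and 5C5, 8.91 and 8.71 in their 2i iPSCs, 13.23 in MEFs, and 4.70 and 4.59 in the ESC lines. Each group was apart from the others, with MEFs highest and ESCs lowest. Lox rose 2.79-fold in 2i iPSCs (log2 change 1.48 ± 0.21, SE, adjusted p = 0.0257; 0.0562 with the clone block) and fell 6.43-fold in ESCs against partial iPSCs (log2 change -2.68 ± 0.21, SE, adjusted p = 0.00286). The 2i iPSCs were 17.9-fold above ESCs (adjusted p = 0.00227), and the single MEF array was 59.7-fold above the mean of the partial clones. A second Lox probe set that reached the table median gave changes of 0.96 and -2.34, and the mean over the probe sets did not pass for the 2i comparison (adjusted p = 0.0836).

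Loxl1, the family member best known for elastic fibres, had the same order of groups. It read 8.44 and 7.73 in untreated 2B1 and 5C5, 9.54 and 9.45 in their 2i iPSCs, 12.12 in MEFs, and 5.07 and 5.04 in the ESC lines. Its 2.65-fold difference between 2i and untreated cells (log2 1.41 ± 0.28, SE) narrowly missed the threshold (adjusted p = 0.0529) and passed without untreated 2B1 (adjusted p = 0.0418). The level in ESCs was 8.20-fold below partial iPSCs (adjusted p = 0.00379) and 21.8-fold below 2i iPSCs (adjusted p = 0.00345). A second Loxl1 probe set gave a smaller fall in ESCs, 0.33 on the log2 scale.

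Loxl3 and Loxl4 differed between the partial clones. Loxl3 read 9.01 in untreated 2B1 and 7.47 in untreated 5C5, 8.37 and 8.43 in their 2i iPSCs, 11.77 in MEFs, and 5.77 and 5.75 in the ESC lines. Loxl4 read 8.85 and 7.17 in the untreated clones, 7.58 and 7.79 in their 2i iPSCs, 8.52 in MEFs, and 4.69 and 4.41 in the ESC lines. Both ESC lines were below every other array of the first 7 for both genes. Both genes fell in ESCs against partial iPSCs, Loxl3 by 2.48 ± 0.51 (SE, adjusted p = 0.0331) and Loxl4 by 3.46 ± 0.56 (SE, adjusted p = 0.0174) on the log2 scale. Neither fall passed with the 4 compared arrays alone (adjusted p = 0.0922 and 0.0580). Against untreated cells, the 2i values were not called for either gene, and the sign of the difference depended on which untreated clone was left out.

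**Figure D3:**
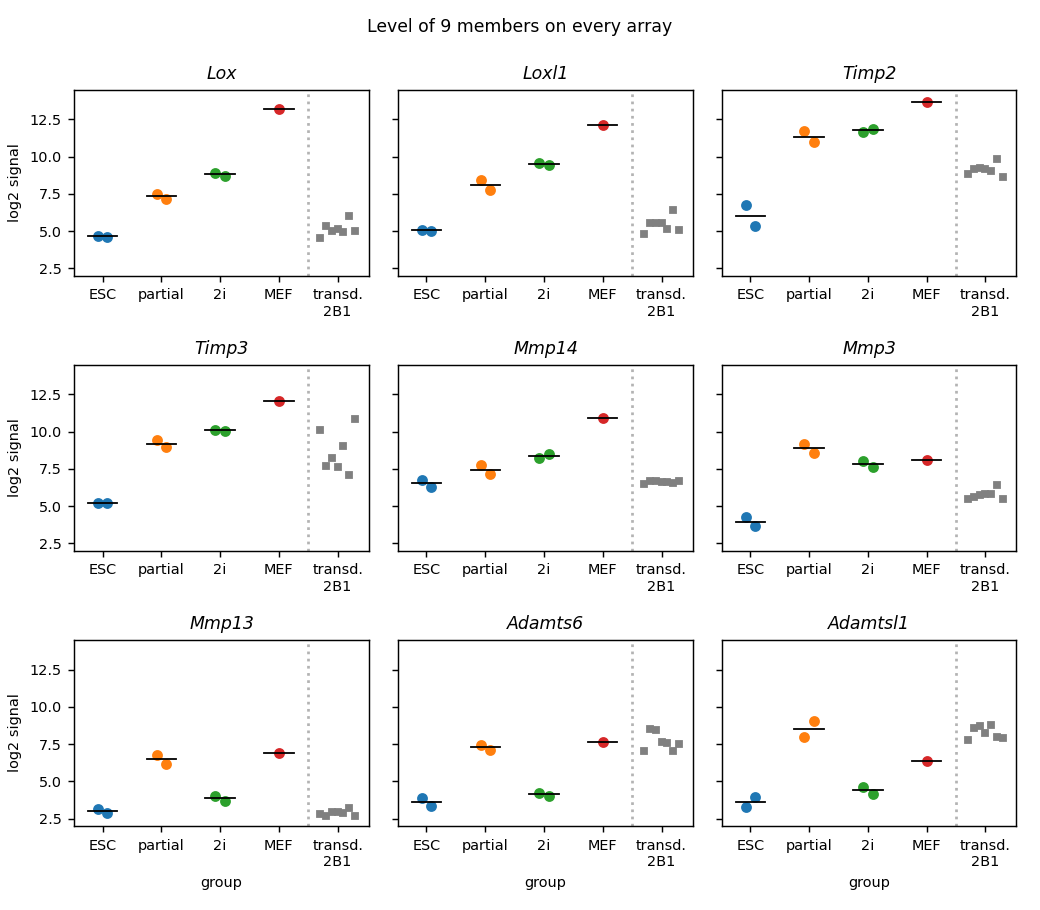
Log2 signal (y axis) of 9 genes in ESCs, untreated partial iPSCs, 2i iPSCs and MEFs, with 1 point per array and a line at the group mean; grey squares are the 7 transduced 2B1 arrays, which appear to be normalized separately. Lox, Loxl1, Timp3 and Mmp14 have MEFs highest and ESCs lowest, whereas Mmp13, Adamts6 and Adamtsl1 are low in both 2i iPSCs and ESCs.

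Of the 11 tested Mmp genes, 8 had their highest value of the first 7 arrays in MEFs. The other 3 were Mmp3, highest in the untreated partial clones, Mmp9, highest in 2i iPSCs at 6.82 and 6.72, and Mmp17, highest in ESCs. On chromosome 9, 9 of the Mmp genes were located, and 3 of them, Mmp3, Mmp10 and Mmp13, passed the filter on dim signals. Promoter windows of 300 bases, 250 before and 50 after the annotated start, were available for 42 of the 74 genes from RefSeq (GRCm38.p6). The windows of these 3 genes are shown because the 3 genes are neighbours of 1 family that all fell in ESCs, and that of Timp3 is shown beside them as a window without the marked motifs. Capitals mark the AP-1 motif TGANTCA and the TATA motif TATAAA, each searched on both strands. All 4 windows lie on the plus strand.
Mmp3, chr9:7445572-7445871: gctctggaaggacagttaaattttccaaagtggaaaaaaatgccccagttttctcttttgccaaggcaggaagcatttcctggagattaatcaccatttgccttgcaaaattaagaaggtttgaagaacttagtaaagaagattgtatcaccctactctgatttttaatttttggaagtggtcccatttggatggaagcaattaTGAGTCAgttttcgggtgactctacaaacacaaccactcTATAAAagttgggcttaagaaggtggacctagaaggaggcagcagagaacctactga
Mmp10, chr9:7502092-7502391: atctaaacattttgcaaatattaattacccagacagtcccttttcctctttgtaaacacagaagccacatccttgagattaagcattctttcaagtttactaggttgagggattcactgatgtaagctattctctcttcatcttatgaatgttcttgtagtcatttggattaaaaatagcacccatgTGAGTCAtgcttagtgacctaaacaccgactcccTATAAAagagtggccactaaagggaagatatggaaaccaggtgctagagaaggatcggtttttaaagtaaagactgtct
Mmp13, chr9:7272264-7272563: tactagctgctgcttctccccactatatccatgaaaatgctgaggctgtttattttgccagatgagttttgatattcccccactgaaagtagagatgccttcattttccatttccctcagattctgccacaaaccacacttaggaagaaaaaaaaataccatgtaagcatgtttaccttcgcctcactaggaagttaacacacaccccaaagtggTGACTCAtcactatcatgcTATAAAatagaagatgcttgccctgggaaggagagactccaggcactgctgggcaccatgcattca
Timp3, chr10:86300162-86300461: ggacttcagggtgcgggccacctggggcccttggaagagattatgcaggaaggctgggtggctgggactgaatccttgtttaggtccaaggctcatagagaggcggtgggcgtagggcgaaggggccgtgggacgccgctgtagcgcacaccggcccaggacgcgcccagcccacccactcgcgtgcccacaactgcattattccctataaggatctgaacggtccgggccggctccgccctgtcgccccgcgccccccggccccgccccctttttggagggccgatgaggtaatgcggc

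In each of the 3 Mmp windows the AP-1 letters come before the TATA letters, at positions -46 and -7 in Mmp3, -63 and -29 in Mmp10 and -35 and -16 in Mmp13, counted from the annotated start to the first base of the motif. Of the 9 Mmp genes on chromosome 9, 8 had both motifs within 1 window, the exception being Mmp8, which had TATAAA alone. Of all 32851 windows of the RefSeq table, 507 (1.54%) held both. The 4 Mmp genes on other chromosomes with a window held neither motif. Over all windows AP-1 was found in 7.81% and TATAAA in 13.6%. The Timp3 window held 24 CpG dinucleotides, against 1 or 2 in the 3 Mmp windows. A match here describes letters only, and no binding was measured.

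Mmp3 (stromelysin-1), which cuts several matrix proteins and activates other Mmps, read 9.15 and 8.60 in untreated 2B1 and 5C5, 8.03 and 7.66 in their 2i iPSCs, 8.08 in MEFs, and 4.27 and 3.66 in the ESC lines. The untreated clones were the highest of the 7 arrays, and the ESC lines were near the lower end of the scale. The fall in ESCs against partial iPSCs was 30.0-fold (log2 change -4.91 ± 0.33, SE, adjusted p = 0.00194), and the 2i iPSCs were 14.7-fold above ESCs (adjusted p = 0.00607). The difference of -1.03 ± 0.33 (SE) between 2i and untreated cells did not pass (adjusted p = 0.138).

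Mmp13 (collagenase-3), which cuts fibrillar collagen, was low in 2i iPSCs as well as in ESCs. It read 6.77 and 6.17 in untreated 2B1 and 5C5, 4.04 and 3.67 in their 2i iPSCs, 6.87 in MEFs, and 3.14 and 2.86 in the ESC lines. Untreated cells and MEFs were above the table median and all the others below it, so Mmp13 passed the filter only through arrays where it was high. Mmp13 fell 6.12-fold in 2i iPSCs (log2 change -2.61 ± 0.29, SE, adjusted p = 0.0140) and 11.1-fold in ESCs (log2 change -3.47 ± 0.29, SE, adjusted p = 0.00308), both against partial iPSCs. Mmp10 (stromelysin-2) read 6.46 and 6.34 in the untreated clones, 6.00 and 6.18 in 2i iPSCs, 7.53 in MEFs and 5.03 and 5.37 in ESCs, and fell 2.31-fold in ESCs (adjusted p = 0.0218; 0.0797 with the 4 compared arrays).

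The membrane-anchored Mmp14 (MT1-MMP), which cuts collagen at the cell surface and activates Mmp2, followed the order of Lox. It read 7.74 and 7.15 in untreated 2B1 and 5C5, 8.20 and 8.49 in their 2i iPSCs, 10.95 in MEFs, and 6.77 and 6.29 in the ESC lines. The 2i iPSCs were 3.52-fold above ESCs (adjusted p = 0.0432), while neither group passed against partial iPSCs. Mmp2 (gelatinase A) had the same order, at 8.13 and 8.92, 8.95 and 9.31, 11.33, and 7.66 and 6.91 in the same sequence of arrays, and passed in none of the 3 comparisons of replicated groups. The call for Mmp14 in 2i iPSCs against ESCs, a log2 difference of 1.82, was lost without filtering on dim genes (log2 difference 1.82, adjusted p = 0.0509) and after centring on array medians (log2 difference 1.67, adjusted p = 0.0565).

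Mmp11 (stromelysin-3) and Mmp17 (MT4-MMP, held at the membrane by a lipid anchor) rose in ESCs against partial iPSCs. Mmp11 read 7.43 and 7.34 in untreated 2B1 and 5C5, 8.74 and 8.42 in their 2i iPSCs, 8.83 in MEFs, and 8.24 and 8.61 in the ESC lines. It was thus lowest in the untreated clones, and it rose 2.29-fold in 2i iPSCs (adjusted p = 0.0498) and 2.05-fold in ESCs (adjusted p = 0.0401). Mmp17 read 6.36 and 6.19, 7.19 and 6.80, 6.89, and 8.09 and 7.34 in the same sequence of arrays, and rose 2.71-fold in ESCs (adjusted p = 0.0397). These calls were close to the threshold: with the 4 compared arrays alone the ESC values gave adjusted p = 0.107 for Mmp11 and 0.0987 for Mmp17, and the 2i value for Mmp11 gave 0.102 with the clone block. Mmp16 (MT3-MMP) fell 3.12-fold in ESCs against partial iPSCs (adjusted p = 0.0182, and 0.0594 with the 4 compared arrays alone). Its other probe sets, with both group means below the table median, differed by -0.81, -0.05 and 0.08 on the log2 scale. On its brightest probe set Mmp16 was 7.67-fold higher on the MEF array than in the mean of the partial clones.

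Among the secreted Adamts enzymes, Adamts6 and the Adamts-like Adamtsl1 were low in both kinds of pluripotent cell. Adamts6, related to enzymes that act on fibrillin, read 7.44 and 7.12 in untreated 2B1 and 5C5, 4.21 and 4.01 in their 2i iPSCs, 7.61 in MEFs, and 3.91 and 3.35 in the ESC lines. The 2i iPSCs and ESCs were below the table median on all 4 arrays. Adamts6 fell 8.99-fold in 2i iPSCs (log2 change -3.17 ± 0.27, SE, adjusted p = 0.00744) and 12.6-fold in ESCs (adjusted p = 0.00239). A second Adamts6 probe set fell by 2.08 on the log2 scale in 2i iPSCs.

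Adamtsl1 (punctin), a matrix glycoprotein without protease activity, was higher in the untreated clones than in MEFs. It read 7.94 and 9.02 in untreated 2B1 and 5C5, 4.60 and 4.17 in their 2i iPSCs, 6.38 in MEFs, and 3.29 and 3.96 in the ESC lines. It fell 17.1-fold in 2i iPSCs (log2 change -4.09 ± 0.45, SE, adjusted p = 0.0139) and 28.9-fold in ESCs (log2 change -4.85 ± 0.45, SE, adjusted p = 0.00384). The 2 other Adamtsl1 probe sets fell by 2.94 and 2.68 in 2i iPSCs. Adamtsl1, Mmp3 and Adam17 were the 3 of the 44 genes with both untreated partial arrays above all other arrays of the first set (6.82%, against 11.1% of all tested genes).

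Adamts1 and Adamts5, which cut the large proteoglycans versican and aggrecan, were lowest in the ESC lines among the first 7 arrays, Adamts5 by its brightest probe set. Adamts1 read 8.41 and 7.84 in untreated 2B1 and 5C5, 7.38 and 7.27 in their 2i iPSCs, 9.80 in MEFs, and 4.50 and 4.22 in the ESC lines, and fell 13.6-fold in ESCs against partial iPSCs (adjusted p = 0.00204). Adamts5 read 5.36 and 4.77 in the untreated clones, 6.03 and 5.74 in 2i iPSCs, 10.21 in MEFs, and 3.87 and 3.53 in ESCs. Its MEF level was 35.4-fold above the mean of the partial clones, and 2i iPSCs were 4.55-fold above ESCs (adjusted p = 0.0199). The fall of Adamts5 in ESCs against partial iPSCs (adjusted p = 0.0351) did not pass in limma with the 4 compared arrays alone (adjusted p = 0.0954). On a second Adamts5 probe set the ESC lines (4.43 and 4.71) overlapped the untreated clones (4.62 and 4.45). On another the log2 difference was -0.64. Adamtsl3 rose 2.16-fold in 2i iPSCs against partial iPSCs (adjusted p = 0.0438, and 0.107 with the clone block). Adamtsl3 and Adamts5 reached the table median only on the 2i and MEF arrays, so they passed the filter through arrays where they were high. Adamtsl5 fell 2.43-fold in 2i iPSCs against partial iPSCs (adjusted p = 0.0346, and 0.0905 with the clone block), but its other probe set differed by 0.20 the opposite way.

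Among the Adam genes, Adam8, a sheddase best known from leukocytes, was brightest in 2i iPSCs. It read 6.47 and 6.35 in untreated 2B1 and 5C5, 7.78 and 8.56 in their 2i iPSCs, 7.02 in MEFs, and 5.66 and 5.59 in the ESC lines. It rose 3.39-fold in 2i iPSCs against partial iPSCs (log2 change 1.76 ± 0.30, SE, adjusted p = 0.0361; 0.0746 with the clone block) and was 5.85-fold above ESCs (adjusted p = 0.0147). On the same arrays the blood marker Ptprc read 2.80 to 3.24 in untreated and 2i cells, and the 6 measured macrophage and blood markers had mean log2 levels of 5.26 and 5.29 in 2i iPSCs against 5.47 and 5.36 in untreated cells. Adam10 and Adam17, the broad sheddases of Notch and TNF, were bright on every array, between 8.61 and 10.83 for Adam10 and between 8.27 and 9.42 for Adam17, and neither was called in the 3 comparisons of replicated groups. Adam15 fell 1.81-fold in ESCs against partial iPSCs (adjusted p = 0.0319; 0.117 with the 4 compared arrays). Of the dim genes, 17 were Adam genes, many of them known from testis, and Adam12, a marker of mesenchymal cells, read 9.41 in MEFs and 3.81 to 4.72 on the other 13 arrays.

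Across the 4 kinds of cell, 28 of the 44 genes (63.6%) had their highest value in MEFs, against 24.7% of all tested genes, and 25 (56.8%) had both ESC lines below all other arrays of the first set, against 14.8%. For 7 genes, Adamts4, Adamts5, Lox, Loxl1, Mmp14, Mmp2 and Timp3, the arrays ran from MEFs through 2i iPSCs and partial iPSCs to ESCs with no overlap between groups (15.9%, against 2.42% of all tested genes). This order was chosen after the values were seen. It is also the order of the mean fibroblast marker level given above, and Col1a1, the main fibrillar collagen chain, read 12.73 in MEFs, 8.81 and 9.12 in 2i iPSCs, 7.55 and 7.11 in partial clones and 5.20 and 4.01 in ESCs. Not every fibroblast marker followed it. Dcn read lower in 2i iPSCs (7.97 and 8.08) than in partial clones (8.41 and 9.49). Twist1, Col5a2 and Lum overlapped between these groups, and Pdgfrb overlapped between partial clones and ESCs. The part of other cells in this order was not tested.

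Other genes of matrix turnover, a list of proteases, inhibitors, collagen-modifying enzymes and matrix proteins outside the named families, gave 37 tested genes. In ESCs against partial iPSCs 10 of them fell and 1, the membrane peptidase Mme, rose (9.82% and 6.09% of all tested genes). The 5 largest falls were those of the matrix proteins Tnc (log2 -4.80) and Thbs1 (log2 -4.67), the plasminogen activators Plat (log2 -3.32) and Plau (log2 -2.43), and the procollagen C-proteinase Bmp1 (log2 -2.32). In 2i iPSCs against ESCs 7 were higher, led by Plat (log2 4.59), Tnc (log2 4.57) and Plau (log2 3.04), and 0 were lower (3.69% and 0.158% of all tested genes). In 2i iPSCs against partial iPSCs the collagen prolyl hydroxylase gene P4ha2 rose (log2 1.39), and Thbs1 (log2 -1.72) and the cathepsin inhibitor gene Cst3 (log2 -1.27) fell. Of all tested genes 6.00% were called there, 3.55% higher and 2.46% lower, so 3 of 37 was near the share over all genes. Those 3 calls became 0 with the clone block. Without either 2i array the calls of 2i iPSCs against partial iPSCs and against ESCs were lost, as were most calls over all tested genes. Without untreated 2B1 the calls in ESCs against partial iPSCs became fewer, here and over all tested genes.

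The untreated clones differed from each other in many of these genes. With 1 array per clone there is no test. Of the 44 genes, 7 were at least 2-fold higher in untreated 2B1 than in untreated 5C5 and 4 at least 2-fold lower, where 10.6% of all tested genes were 2-fold apart, 4.41% higher and 6.22% lower. Adam19, a sheddase of growth factors, read 10.43 in 2B1 and 7.13 in 5C5. The cartilage matrix proteases Adamts7 and Adamts12 differed in opposite directions, at 8.38 and 6.00 for Adamts7 and at 4.34 and 6.74 for Adamts12. The others were Adam23, Loxl4, Loxl3, Adam9 and Adamts4 (higher in 2B1 by 1.01 to 2.09) and Adam22, Adamts3 and Adamtsl1 (lower by 1.08 to 1.89 on the log2 scale). After 2i, 0 of the 44 were 2-fold apart between the clones (1.73% of all tested genes). The ESC lines were 2-fold apart in 3, Timp2, Adam10 and Timp1, all higher in the Nanog-GFP line, where 15.8% of all tested genes were, 9.04% higher in that line and 6.77% lower.

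The library labelled 2B1 with empty vector, the study's reference for the transduced cells, did not resemble untreated 2B1 in these clone differences. Of the 1346 genes at least 2-fold apart between the untreated clones, it lay nearer to 5C5 for 940 (69.8%), and the Nanog library for 849 (63.1%). The Trim28 library was nearer to 5C5 for 637 (47.3%) and the 4 Cnot libraries for 17.5% to 25.2%. Of the 11 genes described here that separated the clones, the Cnot1 library was nearer to 5C5 for 4, Cnot2 for 6 and Cnot3 for 6. With the 3 factors together it was 7, with Trim28 10 and with Nanog 9. The library labelled empty vector was nearer to 5C5 for 9 of these 11. Nearness was taken from uncentred values of separately normalized arrays, so an offset between the sets can change which clone is nearer. The library labelled empty vector also read lower than untreated 2B1 by 3.99 for Mmp13, 3.65 for Mmp3, 3.65 for Loxl1, 2.99 for Lox and 2.89 for Timp2. These levels were set across separately normalized arrays. Adamts12 and Adamts3 went the other way, with untreated 2B1 minus empty vector at -3.40 and -2.53. The mean of the fibroblast markers was 6.06 in the library labelled empty vector against 7.87 in untreated 2B1, and their part in these differences was not tested. The median of these differences was 0.75 over the 44 genes and 0.27 over all tested genes. Every comparison with the library labelled empty vector below shares that 1 array, and each direction rests on its label.

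Against the library labelled empty vector, the 3 single Cnot libraries shared 10 genes that were at least 2-fold apart. The Cnot1 library had 8 of the 44 higher and 5 lower, where 4.15% of all tested genes were 2-fold higher and 5.87% lower. The Cnot2 library had 6 higher and 5 lower (2.87% and 3.89% of all tested genes), and the Cnot3 library 6 higher and 5 lower (2.49% and 5.19%). Higher in all 3 were Adam19, Adam23, Adam9, Adamts7 and Loxl3, and lower in all 3 were Adamts12, Adamts3, Mmp16, Mmp2 and Timp3. Of all tested genes 1.73% were higher and 3.28% lower in all 3. Of these 10 genes, 7 were also 2-fold apart between untreated 2B1 and untreated 5C5 in the same direction: all 5 higher ones, and Adamts12 and Adamts3. The other 3, Mmp16, Mmp2 and Timp3, were not.

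**Figure D4:**
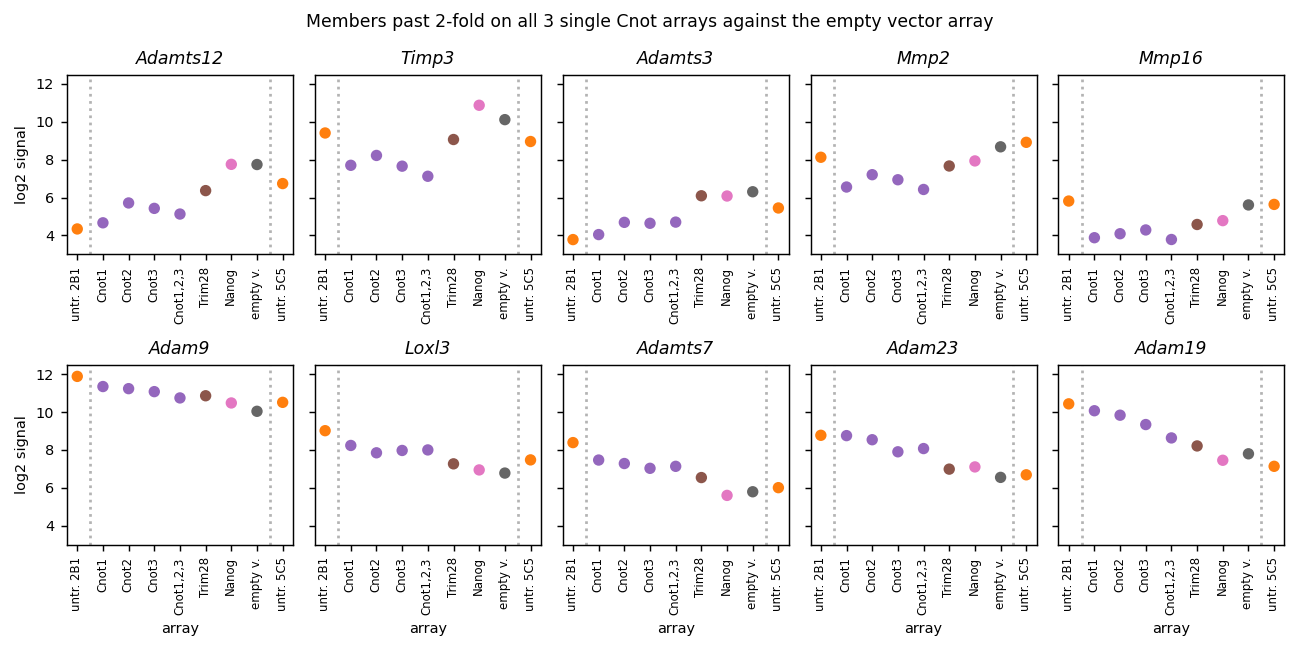
Log2 signal (y axis) of the 10 genes past 2-fold on all 3 single Cnot arrays against the array labelled empty vector, on each transduced 2B1 array and, beyond the dotted lines, the separately normalized untreated 2B1 and 5C5 arrays (x axis, 1 point per array). Adam19 lies at 9.34 to 10.07 on the single Cnot arrays, against 10.43 in untreated 2B1, 7.79 with empty vector and 7.13 in untreated 5C5.

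Timp3 was the gene of this kind that stood out among the inhibitors. It read 10.12 with empty vector, 7.70 with Cnot1, 8.22 with Cnot2, 7.66 with Cnot3, 7.12 with Cnot1, 2 and 3, 9.07 with Trim28 and 10.88 with Nanog. The 4 Cnot libraries were below the other 3. The untreated clones, at 9.41 and 8.96, lay between the Cnot libraries and the one labelled empty vector. Relative to untreated 2B1, with each array centred on its median, Timp3 was lower by 1.29 with Cnot1, 0.83 with Cnot2, 1.40 with Cnot3 and 1.89 with all 3 on the log2 scale, and higher by 0.98 with empty vector.

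Mmp2 showed a similar split, at 8.68 with empty vector, 6.56, 7.21 and 6.94 with Cnot1, Cnot2 and Cnot3, 6.43 with the 3 together, 7.67 with Trim28 and 7.94 with Nanog. Mmp16 read 5.61 with empty vector, 3.88, 4.09 and 4.29 with the single Cnot factors, 3.78 with the 3 together, 4.58 with Trim28 and 4.78 with Nanog. The other 6 transduced libraries were all below the one labelled empty vector for both genes. With the Nanog library as the reference, the genes past 2-fold in all 3 single Cnot libraries were Adam19 and Adamts7 (higher) and Adamts12, Adamts3 and Timp3 (lower). Mmp2 and Mmp16 were not among them. Of all tested genes, 1.84% were higher and 2.74% lower in all 3 against the Nanog library. With untreated 2B1 as the reference and arrays centred on their medians, 0 of the 44 were higher and 9 lower in all 3 (1.86% and 2.65% of all tested genes). This crosses separately normalized arrays. Mmp16 was the only 1 of the 10 among those 9. Lox and Loxl1, also among the 9, were lower still with empty vector, at -2.71 and -3.37. With the single Cnot factors Lox was at -2.14 to -1.78 and Loxl1 at -2.58 to -2.48. Mmp16 was at 0.07 with empty vector and -1.52 to -1.18 with the single Cnot factors.

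Adam19 read 7.79 with empty vector and 7.45 with Nanog, against 10.07, 9.83 and 9.34 with Cnot1, Cnot2 and Cnot3. It read 8.63 with the 3 factors together and 8.21 with Trim28. The single Cnot libraries were thus nearer to untreated 2B1 (10.43), and the library labelled empty vector nearer to untreated 5C5 (7.13). Adamts12 ran the other way, with 7.74 and 7.75 for empty vector and Nanog, 4.66, 5.71 and 5.43 for the single Cnot factors, 5.13 for the 3 together and 6.37 for Trim28.

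The library with Cnot1, 2 and 3 together had 5 of the 44 genes at least 2-fold higher and 5 lower than the library labelled empty vector, where 3.72% of all tested genes were higher and 8.43% lower. Lox (log2 difference 1.48) and Loxl1 (1.63) were among the higher ones, and neither passed with a single Cnot factor. Lox read 6.00 with the 3 factors, 4.52 with empty vector and 4.95 to 5.31 on the remaining 5 transduced arrays, and Loxl1 read 6.42, 4.79 and 5.10 to 5.55. A second probe set of each gene differed less, at 5.38 with the 3 factors and 4.66 with empty vector for Lox and at 4.08 and 3.79 for Loxl1, and the mean over all probe sets gave 4 genes past 2-fold in place of 10. On the same array the fibroblast collagen genes also read higher than with empty vector, at 9.46 against 7.79 for Col1a2 and 7.15 against 5.60 for Col3a1. Dcn (7.50 against 8.81), Twist1 (6.39 against 8.03) and Pdgfrb (3.69 against 4.33) read lower. The mean of the 14 measured fibroblast markers was 6.54 against 6.06, and the part of fibroblast-like cells was not tested. Lox and Loxl1 remained below their levels in the untreated clones, which were set on another scale. The Trim28 library had 0 of the 44 higher and 4 lower, Adamts12, Timp3, Mmp16 and Mmp2 (0.963% and 1.52% of all tested genes), at log2 differences of -1.38 to -1.01. The Nanog library had 0 of the 44 past 2-fold (1.43% of all tested genes). These 2 counts depended on the reference. Against untreated 2B1, with arrays centred on their medians, more of the 44 were past 2-fold with either factor. That comparison crosses separately normalized arrays. Its share of all tested genes was not computed, so it is not read as particular to these genes. Against empty vector the Trim28 count was 1 with the mean over all probe sets and 2 after centring.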

How the data were processed

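RNA from 14 mouse samples was measured on Affymetrix arrays with 45101 probe sets. The authors deposited log2 values per probe set; RMA and affy are named in the submitters' processing notes, with no version or settings. The build is not given in the sources used here. By their distributions these arrays formed 2 sets of 7 arrays (median range of the sorted values 0.085 and 0.096 within a set, 0.318 over all 14), treated as normalized separately. Array medians were 5.47 to 5.55 and 5.30 to 5.36. The number of arrays limits the precision.

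Gene names came from the platform annotation, and all 74 genes matched the RefSeq table (GRCm38.p6). A gene was tested if at least 2 of 14 arrays reached 5.42, so a gene could pass through only the group where it was high. Without this filter, 4 of the 74 genes were again higher and 4 lower in 2i iPSCs against partial iPSCs. The 3 groups of 2 arrays (untreated partial iPSCs, 2i iPSCs, ESCs) were fitted together with limma 3.58.1 in R 4.3.3 (3 residual degrees of freedom), and p-values, two-sided, were adjusted by Benjamini-Hochberg over 12664 genes. The MEF array was added to that fit with the spread pooled over the other groups. Single arrays were compared by a 2-fold rule with no test. The untreated and 2i arrays of a clone come from the same cell line: deviations of same-clone arrays from their group means correlated at 0.11 over tested genes, and the clone was tried as a replicate block. Other alternatives were filters, scalings, probe set choices, fold thresholds, reference arrays and leaving out arrays.

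The genes and lists were chosen with earlier results of these data known. Named in the text were the tested Timp and Lox family genes, the 10 called genes with the largest change in each direction of a comparison, the 8 furthest past 2-fold between arrays, and the 5 largest of the wider list. Adam10, Adam15, Adam17, Adam12, Timp4 and Mmp10 fall outside that rule in places, as do the genes named for an order of groups, and were chosen after their values were seen. Protein sequences were not used here.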

Additional observations from a re-analysis of the deposited data

Results flagged for a closer look

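In 3 genes the change from untreated to 2i cells ran in opposite directions in the 2 clones, by at least 0.5 on the log2 scale in each. Adam19 was lower by 1.06 after 2i in 2B1 (log2 change -1.06) and higher by 2.14 in 5C5, a difference between clones of -3.20. Loxl4 changed by -1.28 in 2B1 and 0.62 in 5C5, a difference of -1.89. Loxl3 changed by -0.64 in 2B1 and 0.95 in 5C5, a difference of -1.60. With 1 array per clone and condition, the difference between the clones was not tested. The untreated levels of all 3 genes were higher in 2B1 than in 5C5, and the 2i levels of the clones were within 2-fold of each other.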

How the results depend on the processing

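Of 31 called values of named genes, 344 of 436 alternatives kept direction and call, 92 kept the direction without passing, and 0 reversed. Of 146 alternatives of 10 uncalled values, 10 passed in the same direction and 2 reversed. In 2i against partial iPSCs, Loxl3 gave -0.62 without untreated 5C5 and 0.93 without untreated 2B1, and Loxl4 gave 0.51 without untreated 2B1 and -1.17 without untreated 5C5. For 2i against partial iPSCs, the clone as a replicate block gave 3 called genes instead of 8, and leaving out 1 array gave 0 to 9. ESCs against partial iPSCs gave 10 instead of 18 with the 4 compared arrays alone, and 10 to 19 with 1 array left out. For 2i iPSCs against ESCs, leaving out 1 array gave 0 to 12 genes. MEFs against partial iPSCs gave 8 to 17 in limma with 1 array left out, and 11 instead of 19 at a 4-fold threshold. At 1.5-fold, the counts against the library labelled empty vector were 21 for Cnot1, 17 for Cnot3, 9 for Trim28, 20 for Cnot1, 2 and 3, and 4 for Nanog. The mean over all probe sets gave 6 for Cnot3, 1 for Trim28 and 4 for Cnot1, 2 and 3. Centring on array medians gave 2 for Trim28. Chosen after seeing the data, the Nanog library as the reference gave fewer genes for Cnot2. Untreated 2B1 as the reference gave more for Trim28 and Nanog, across separately normalized arrays. The share of all tested genes was not computed for these alternatives of fold threshold (4-fold and 1.5-fold), probe sets, centring and reference. Their counts are therefore not read as particular to these genes. Of the wider list, also chosen after seeing the data, the replicate block gave 0 instead of 3 for 2i against partial iPSCs. Leaving out 1 array gave 0 to 7 there, 6 to 14 for ESCs against partial iPSCs and 0 to 10 for 2i iPSCs against ESCs. The cause of these changes was not tested, beyond the smaller number of arrays where arrays were left out. The block could be applied only to the paired partial and 2i arrays.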
